A study of Bos taurus with 86 samples.

Results

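PSPH encodes phosphoserine phosphatase, and its level was followed here across 43 single bovine embryos. The platform annotation gives PSPH as the single symbol of 2 rows of the array table, which are 2 spots of 1 clone, among 16416 rows. After averaging of rows with the same symbol it is 1 of 3433 named genes and 1 of 6278 features tested. PSPH was selected on measured values in these embryos, as the named gene with the largest IVD minus AI difference. That difference, and every value taken from the IVD embryos against the others, is therefore a description and carries no test.

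The embryos fall into 3 groups by their labels: 15 IVF, 14 IVD and 14 AI. IVF was read as in vitro fertilization and AI as artificial insemination, while IVD is not spelled out and is used as a group name only. The series title speaks of effects of maturation, fertilization and culture in vitro. The same protocol is given for all groups. RNA of each whole embryo went through 3 rounds of linear amplification. It was hybridised against a common reference RNA amplified in 2 rounds, on 2 arrays with the dyes exchanged. The arrays of the groups nevertheless differed in technical measures, given below. The sources used here give no breed, sex or developmental stage.

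Serine is built from the glycolytic intermediate 3-phosphoglycerate by PHGDH, PSAT1 and PSPH, and PSPH carries out the last and irreversible step, removal of the phosphate from phosphoserine. Serine is then turned into glycine by SHMT1 and SHMT2, which hand the released carbon to folate for nucleotide synthesis and methylation, and it is a building block of phosphatidylserine and sphingolipids. In cultured cells, genes of the serine pathway are known targets of the transcription factor ATF4, which mediates the response to amino acid shortage. No named row carried the symbol PHGDH or PSAT1, so these enzymes were not analysed here.

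Values are log2 ratios of embryo over reference, the mean of an embryo's 2 arrays after each array was centred on its median. This direction is likely but not stated by the labels, and with the opposite one every sign would turn. A ratio to the reference ranks embryos for 1 gene but does not compare the abundance of different genes. The IVD arrays stood apart from the others. Rows without a value numbered 3076.5 to 5099.5 per embryo (mean of its arrays) in IVF, 1001.5 to 1871.5 in IVD and 3613 to 5713 in AI. The correlation of an embryo's dye-swapped arrays was 0.717 to 0.911 in IVF, 0.589 to 0.767 in IVD and 0.816 to 0.912 in AI. The part of these differences in the results for IVD was not tested.

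PSPH was higher in IVD embryos than in any IVF or AI embryo. Its log2 ratio was -2.02 ± 0.742 in IVF (SD, n = 15), 1.04 ± 0.623 in IVD (SD, n = 14) and -2.61 ± 1.03 in AI (SD, n = 14). In IVF the lowest embryo was at -3.71, the median at -1.92 and the highest at -1.06. In IVD the lowest was at -0.08, the median at 1.10 and the highest at 1.83. In AI the lowest was at -3.95, the median at -2.76 and the highest at -0.73. PSPH thus lay below the reference in 15 of 15 IVF and 14 of 14 AI embryos and above it in 13 of 14 IVD embryos. The lowest IVD embryo exceeded the highest IVF embryo by 0.977 and the highest AI embryo by 0.651 on the log2 scale, while the IVF and AI ranges overlapped over most of their length. In whole embryos, fewer cells of a type and less RNA per cell cannot be told apart.

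**Figure D1:**
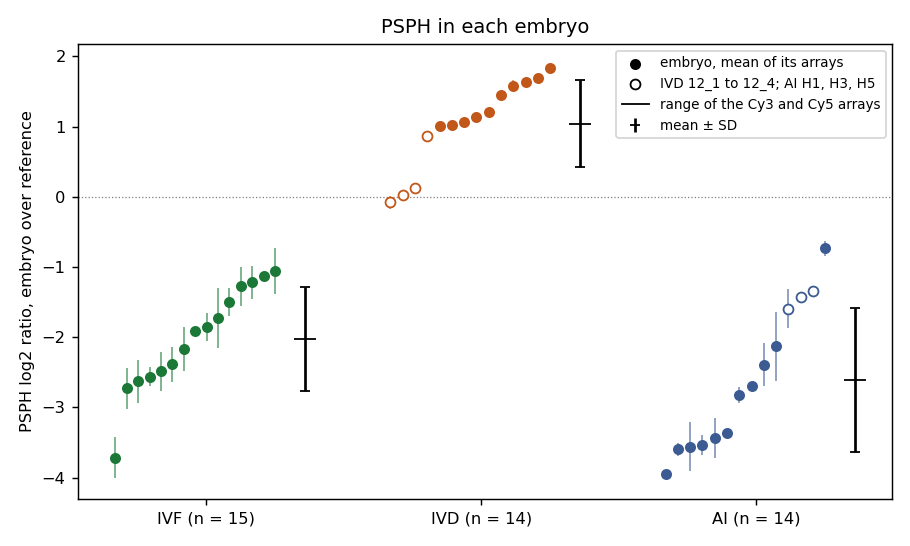
PSPH log2 ratio (embryo over reference) on the y axis for each of 15 IVF, 14 IVD and 14 AI embryos, ordered by value within a group. Points are embryos, vertical lines span the Cy3 and Cy5 arrays, bars at the right of each group are mean ± SD, and open points are IVD 12_1 to 12_4 and AI H1, H3 and H5. All IVD embryos lie above -0.08 or at it, and all IVF and AI embryos lie at or below -0.73.

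The position of PSPH within each embryo's own profile needs no comparison of scales between arrays. It ranks the same ratios that chose the gene, so it describes them again and is no separate evidence. Among 3711 features measured in every embryo, the PSPH ratio stood at a median percentile of 6.79 in IVF embryos (0.835 to 19.4). In IVD embryos the median percentile was 83.7 (46.4 to 92.8). In AI embryos it was 3.45 (1.29 to 23.0). PSPH was therefore among the lowest ratios of IVF and AI profiles and in the middle to upper part of IVD profiles.

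The IVD minus AI difference was 3.65 ± 0.295 (SE; 95% interval 3.06 to 4.25), a 12.6-fold higher level with an interval of 8.34 to 19.0. It was the highest of the 3433 named genes, which is how the gene was chosen. The next genes in that order were OCIAD2 (3.40 ± 0.397) and CLDN1 (2.60 ± 0.495). OCIAD2 averaged -2.03 ± 1.23 in IVF, -0.84 ± 0.953 in IVD and -4.24 ± 1.09 in AI (SD). CLDN1, a tight junction protein, averaged -0.28 ± 1.43 in IVF, 1.31 ± 1.10 in IVD and -1.29 ± 1.56 in AI. For both of these genes the IVD and AI embryos overlapped, unlike for PSPH.

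**Figure D2:**
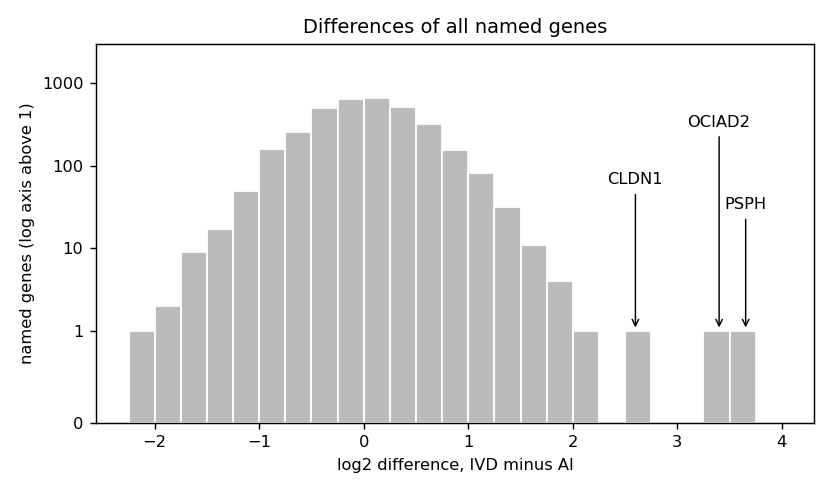
Number of named genes (y axis, logarithmic above 1) by log2 difference IVD minus AI (x axis, bins of equal width) over all 3433 named genes. PSPH at 3.65, OCIAD2 at 3.40 and CLDN1 at 2.60 stand beyond the end of the main body of genes.

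Differences between IVD and AI embryos were common, with 25.5% of the 6278 features called higher and 21% called lower in IVD (limma, Benjamini-Hochberg adjusted p under 0.05). In 47 of 3711 features (1.27%) every IVD embryo lay above every AI embryo. Features with every IVD embryo below every AI embryo were not counted. In 17 features (0.458%) every IVD embryo lay above every IVF and every AI embryo, as for PSPH. Nothing is read from these shares for PSPH, since its IVD values chose it.

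IVF minus IVD was -3.07 ± 0.290 (SE; 95% interval -3.65 to -2.48), an 8.37-fold lower level in IVF and the lowest difference of the 3433 named genes. This comparison shares the IVD embryos with the one that picked the gene and is likewise given without a test. Between IVF and IVD, 22.3% of features were called higher and 25.2% lower in IVF.

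The comparison of IVF with AI was not itself used to choose the gene, but it shares the AI embryos with the comparison that was. Low AI values favour both differences, so this estimate and its p-values are not free of the choice. IVF minus AI was 0.59 ± 0.290 (SE; 95% interval 0.00547 to 1.17), a 1.5-fold higher level in IVF. It did not pass the threshold (limma, two-sided p = 0.0480, adjusted p = 0.102 over 6278 features), in a comparison where 19.9% of features were called higher and 17.7% lower in IVF. There were 303 named genes with a more positive IVF minus AI difference. The call depended on single embryos: the difference was 0.73 (limma adjusted p = 0.0344) without AI embryo 5, the highest of its group, and 0.71 (limma adjusted p = 0.0429) without IVF embryo 1, the lowest of its group. Without AI embryos H1, H3 and H5, an alternative chosen after seeing the data, it was 0.91 (limma adjusted p = 0.0129).

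The 2 rows of PSPH gave near-identical group means: -2.01 and -2.04 in IVF, 1.05 and 1.04 in IVD, and -2.61 in AI on both. Within an embryo the rows were 0.106 apart on average in IVF, 0.0352 in IVD and 0.167 in AI. Both rows hold the same clone, so their agreement covers the spotting and not the identity of the probe. On the arrays with the embryo in Cy3 the mean was -1.78 in IVF, 0.997 in IVD and -2.45 in AI. On the arrays with the embryo in Cy5 it was -2.26 in IVF, 1.09 in IVD and -2.78 in AI. Ratios far from 0 were thus slightly larger in size on the Cy5 arrays in each group, and the order of the groups was the same with either dye. On the deposited scale, without centring, the means were -2.27 in IVF, 1.04 in IVD and -2.87 in AI.

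**Figure D3:**
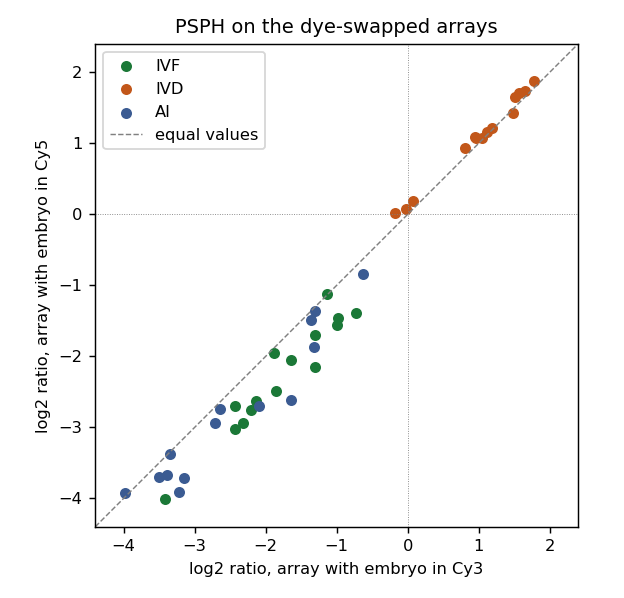
PSPH log2 ratio on the array with the embryo in Cy5 (y axis) against the array with the embryo in Cy3 (x axis, turned in sign), 1 point per embryo, with a dashed line of equal values. IVD embryos lie close to the line, with a mean of 1.09 in Cy5 and 0.997 in Cy3, and most IVF and AI embryos lie below it, with Cy5 means of -2.26 and -2.78 against Cy3 means of -1.78 and -2.45.

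PSPH varied more between embryos of a group than most features did. Its SD of 0.742 in IVF was larger than that of 92.8% of the 3711 features measured in every embryo, against a median SD of 0.400. In IVD its SD of 0.623 was larger than that of 91.2% of features, with a median of 0.324. This spread includes IVD 12_1 to 12_4, the lowest of the group, and the SD of the other 10 was 0.310. In AI its SD of 1.03 was larger than that of 98.1% of features, with a median of 0.368. AI embryos spread the widest, with 6 embryos between -3.95 and -3.36 and 4 between -1.59 and -0.73. AI 8, AI 16, AI 14 and AI 17 filled the space between, at -2.83, -2.69, -2.39 and -2.13.

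Embryos with related labels lay together in places, which was noticed after seeing the data and is described without a test. IVD embryos 12_1, 12_2, 12_3 and 12_4 have a number in common, which the labels do not explain. They were at -0.08, 0.87, 0.13 and 0.03, the 4 lowest values of the group. Their mean was 0.24 ± 0.431 (SD, n = 4), and that of the other 10 IVD embryos 1.36 ± 0.310 with a range of 1.02 to 1.83. The difference between these means was -1.13. In 32 of 3711 features (0.862%) these 4 embryos all lay below the other 10, PSPH among them. Rows without a value numbered 1052 to 1492 in these 4 embryos and 1001.5 to 1871.5 in the other 10, and the dye-swap correlation was 0.589 to 0.657 in the 4 and 0.628 to 0.767 in the 10. The part of the lower correlation in the PSPH values was not tested. Without these 4 embryos IVD minus AI was 3.98, a change whose direction follows from their being the lowest of the group.

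AI embryos H1, H3 and H5 carry a letter that the labels do not explain. They were at -1.43, -1.34 and -1.59, with a mean of -1.45 ± 0.131 (SD, n = 3). The other 11 AI embryos averaged -2.93 ± 0.923 and ran from -3.95 to -0.73. The difference between these means was 1.48, and the sets overlapped through AI embryo 5. Without H1, H3 and H5, which lie above the AI mean, IVD minus AI was 3.97.

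Within IVF and within AI, PSPH was set against the number of rows without a value and the dye-swap correlation, 4 relations in all. None passed after adjustment over the 4 (adjusted permutation p of 0.133 or more). The strongest was in IVF with the dye-swap correlation (Pearson r = -0.482, permutation p = 0.0332, Spearman rho = -0.554, permutation p = 0.0333, n = 15), and r was -0.269 without the 2 embryos farthest from the median correlation.

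Most genes around PSPH did not share its step between IVD and the other groups. The 10 pathway lists hold 137 genes beside PSPH, of which 53 had a named row and 44 were measured in enough embryos. In IVD against AI, 9 of the 44 rose and 18 fell, with a median difference of -0.09 against 0.06 over all features, of which 25.5% were higher and 21% lower. That balance turned on the deposited scale, with 14 of the 44 higher and 10 lower. In IVF against AI, 13 rose and 11 fell, with a median of 0.03 against 0.04 over all features. Of all features 19.9% were higher and 17.7% lower there. In IVF against IVD, 12 rose and 7 fell, with a median of 0.16 against -0.01 over all features. Here 22.3% of all features were higher and 25.2% lower. The highest IVD minus AI difference in the lists was that of DDIT4, at 1.64 ± 0.238.

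**Figure D4:**
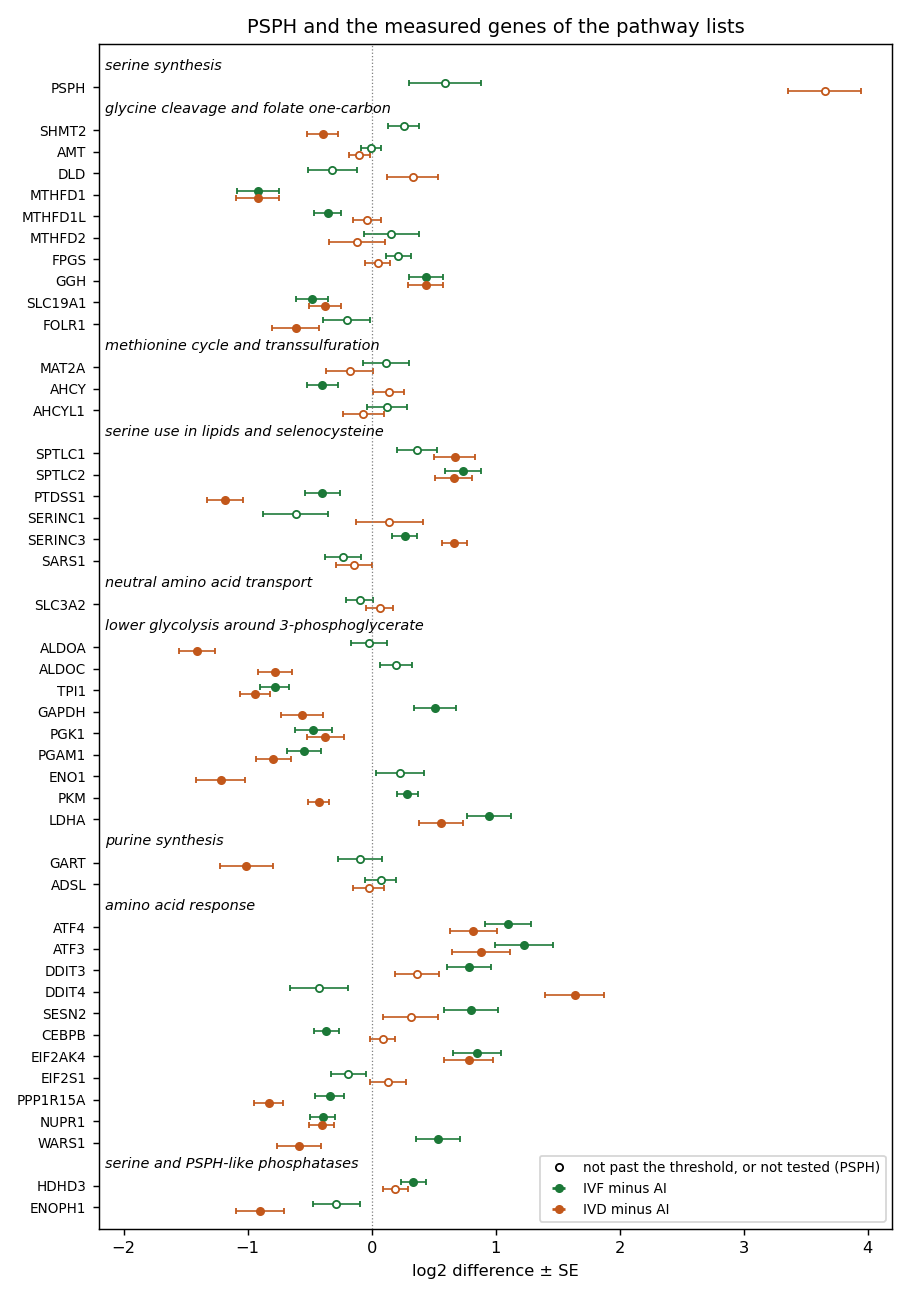
Log2 difference ± SE on the x axis for PSPH and the 44 measured genes of the pathway lists, grouped by list, with IVF minus AI (green) above IVD minus AI (orange) for each gene. Filled points passed the threshold and open points did not or, for PSPH, were not all tested. PSPH lies at 3.65 for IVD minus AI, and the other genes lie between -1.41 and 1.64.

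Upstream of serine, the enzymes of lower glycolysis that supply 3-phosphoglycerate and use it up were mostly lower in IVD embryos. Of 9 measured genes, 8 fell and 1 rose in IVD against AI, with a median difference of -0.78. Among all features 21% were lower and 25.5% higher. ALDOA, the aldolase, fell by 1.41 ± 0.146 (means 0.69 in IVF, -0.70 in IVD and 0.71 in AI; limma adjusted p = 2.23e-10). ENO1, the enolase, fell by 1.22 ± 0.197 (means -0.99 in IVF, -2.43 in IVD and -1.21 in AI; limma adjusted p = 2.59e-06). TPI1, PGAM1 and GAPDH fell by 0.94, 0.79 and 0.56. LDHA, which makes lactate, was the 1 gene that rose, by 0.56 ± 0.180 (means -1.0 in IVF, -1.39 in IVD and -1.95 in AI). In IVF against IVD, 5 of the 9 genes rose and none fell, with 4 not past the threshold, beside 22.3% higher and 25.2% lower among all features. In IVF against AI the list was split, with 3 higher and 3 lower, beside 19.9% higher and 17.7% lower among all features. LDHA rose by 0.95 ± 0.177 and TPI1 fell by 0.78 ± 0.116. On the deposited scale, on which the median of all features lay 0.317 higher in IVD than in AI, 5 of the 9 genes still fell, and GAPDH was 1 of the 3 lost.

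Downstream of serine, 10 genes of glycine cleavage and the folate cycle were measured. In IVD against AI 1 rose and 4 fell, and in IVF against AI 1 rose and 3 fell. The shares over all features were 25.5% higher and 21% lower in IVD against AI. In IVF against AI they were 19.9% and 17.7%, so the total called is near the background in both comparisons. MTHFD1, which interconverts one-carbon folates in the cytosol, averaged -0.60 ± 0.574 in IVF, -0.60 ± 0.302 in IVD and 0.32 ± 0.468 in AI (SD, n = 14 each). It fell by 0.92 ± 0.171 in both IVF and IVD against AI (limma adjusted p = 5.24e-05 and 2.83e-05). SHMT2, the mitochondrial enzyme that splits serine into glycine and a one-carbon unit, averaged -1.53 ± 0.343 in IVF, -2.18 ± 0.230 in IVD and -1.79 ± 0.392 in AI. It fell in IVD against AI (-0.39 ± 0.126, limma adjusted p = 0.00946) and rose in IVF against IVD (0.65 ± 0.124, limma adjusted p = 2.78e-05). The folate carrier SLC19A1 was lower than in AI in both IVF (-0.48) and IVD (-0.38), and GGH, which trims folate polyglutamates, was higher in both (0.44 in IVF and 0.43 in IVD). The folate receptor FOLR1 had a high ratio in every group, 4.31 in IVF, 3.89 in IVD and 4.51 in AI, and fell in IVD against AI by 0.61 ± 0.190. On the deposited scale 2 genes rose and 1 fell in IVD against AI, and the falls of SHMT2, SLC19A1 and FOLR1 were no longer past the threshold.

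Among 6 measured genes that use serine for lipids or for charging tRNA, 3 rose and 1 fell in IVD against AI. Of all features 25.5% were higher and 21% lower. SPTLC1 and SPTLC2, subunits of the enzyme that starts sphingolipid synthesis from serine, rose by 0.67 ± 0.164 and 0.66 ± 0.149. SERINC3, of a family named for serine incorporation into membranes, rose by 0.67 ± 0.103. PTDSS1, which makes phosphatidylserine, averaged -1.64 in IVF, -2.42 in IVD and -1.24 in AI, and fell by 1.18 ± 0.143 in IVD against AI (limma adjusted p = 8.91e-09). In IVF against AI 2 rose and 1 fell, beside 19.9% higher and 17.7% lower among all features. SPTLC2 rose by 0.73 ± 0.146, SERINC3 rose by 0.27 ± 0.101 and PTDSS1 fell by 0.40 ± 0.141. On the deposited scale the calls of SERINC3 and PTDSS1 were lost (limma adjusted p = 0.213 and 0.0796). SERINC3 was also lost with the embryo in Cy5 alone and PTDSS1 in Cy3 alone (limma adjusted p = 0.091 and 0.0911). With embryos of similar dye bias taken as a block, none of the 6 genes was called in IVF against AI.

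Of 11 measured genes of the amino acid response, 4 rose and 3 fell in IVD against AI, and 6 rose and 3 fell in IVF against AI. Over all features 25.5% were higher and 21% lower in IVD against AI, so the IVD count is near the background, and 19.9% were higher and 17.7% lower in IVF against AI. ATF4 averaged -0.29 ± 0.461 in IVF, -0.57 ± 0.579 in IVD and -1.39 ± 0.505 in AI. It rose by 1.10 ± 0.187 in IVF against AI (limma adjusted p = 1.22e-05) and by 0.82 ± 0.190 in IVD against AI (limma adjusted p = 0.000493). ATF3, a stress-induced transcription factor, rose by 1.23 ± 0.232 in IVF and 0.88 ± 0.236 in IVD as the mean of 6 rows. Those rows disagreed, from -0.46 to 2.4 for IVF minus AI and from 0.11 to 1.52 for IVD minus AI, and with the embryo in Cy5 alone IVD minus AI was 0.51 and not past the threshold (limma adjusted p = 0.132). EIF2AK4, the kinase GCN2 that senses uncharged tRNA, rose by 0.85 ± 0.193 in IVF and 0.78 ± 0.196 in IVD. With embryos of similar dye bias taken as a block, the IVF against AI calls of ATF3 and EIF2AK4 were lost. The differences were then 1.23 for ATF3 (limma adjusted p = 0.0697) and 0.73 for EIF2AK4 (limma adjusted p = 0.203). DDIT4, an inhibitor of mTORC1, was higher in IVD than in both other groups, with -2.26 ± 0.639 in IVF, -0.19 ± 0.504 in IVD and -1.83 ± 0.784 in AI. PPP1R15A, the phosphatase subunit that ends the response, fell by 0.83 ± 0.116 in IVD and by 0.34 ± 0.116 in IVF against AI. Its IVF minus AI difference was -0.005 with the embryo in Cy5 alone (limma adjusted p = 0.984). That call was also lost on the deposited scale (limma adjusted p = 0.205) and with the embryo number or the dye-bias cluster as a block (limma adjusted p = 0.0721 and 0.737). On the deposited scale 7 genes of this list rose and 1 fell in IVD against AI.

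Other lists held few measured genes. In the methionine cycle AHCY, which clears S-adenosylhomocysteine, fell by 0.40 ± 0.126 in IVF against AI, and none of the 3 genes passed in IVD against AI (MAT2A -0.18 ± 0.190, AHCY 0.14 ± 0.126, AHCYL1 -0.07 ± 0.165). In purine synthesis GART, an enzyme that takes up folate-bound carbon, averaged 1.08 in IVF, 0.16 in IVD and 1.17 in AI and fell by 1.01 ± 0.215 in IVD against AI, with values in 8 of 14 IVD embryos. ADSL differed by -0.03 ± 0.125 between IVD and AI. SLC3A2, the heavy chain of amino acid exchangers and the 1 measured transport gene, passed in no comparison, at 0.06 ± 0.112 for IVD minus AI. Of PSPH-like phosphatases, ENOPH1 fell by 0.90 ± 0.191 in IVD against AI and HDHD3 rose by 0.34 ± 0.0997 in IVF against AI. No gene of serine breakdown was measured in enough embryos.

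The IVF against AI calls of these lists rest on the fit used. On the deposited scale 12 of the 44 genes were called, and with 3 clusters of embryos of similar dye bias as a block, 11 of 15 IVF embryos falling in a cluster with 1 of 14 AI embryos, 3 of the 24 calls were shared.

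Markers of embryonic cell types were read beside PSPH. Of 13 measured trophectoderm genes, 12 had a mean above the reference in each group, and the embryos' median ratio over the list was 1.49 to 2.59 in IVF, 1.82 to 3.39 in IVD and 1.94 to 3.00 in AI. In IVD against AI 6 of them rose and 4 fell, in IVF against AI 1 rose and 4 fell, and in IVF against IVD 2 rose and 7 fell. Among all features 19.9% were higher and 17.7% lower in IVF against AI, and 22.3% and 25.2% in IVF against IVD. The IVD against AI balance turned with the scaling, with 4 higher and 6 lower after quantile normalization and 7 higher and 2 lower on the deposited scale, beside 25.5% higher and 21% lower over all features. Of the 2 measured inner cell mass and hypoblast genes, KLF4 rose by 0.61 and FN1 fell by 0.42 in IVD against AI. Of 3 cumulus and granulosa genes 1 rose in IVD against AI and 2 rose in IVF against AI, and their list median was -0.26 to 0.21 in IVF embryos, -0.33 to 0.28 in IVD and -0.53 to 0.12 in AI. Both blood and immune genes had means below the reference in every group, and no oocyte gene was measured in enough embryos. The part of cell composition in the PSPH values was not tested.

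The likeness of other genes to PSPH was taken as Pearson's r over the 43 embryos, for 2344 named genes measured in every embryo. All points share the array platform, the reference and the group structure, so r over all embryos carries the difference between IVD and the other groups. The highest were DPF3 (r = 0.845), SLC4A9 (0.833), CAPRIN1 (0.813), RAB11A (0.810), GSTZ1 (0.807), MICU2 (0.805), TAX1BP1 (0.804), NIPA2 (0.803), MMADHC (0.802) and CDH1 (0.802). These 10 were the only genes above 0.8, and the 99th percentile was 0.751. SLC4A9 averaged -2.13 ± 0.417 in IVF, -0.47 ± 0.132 in IVD and -1.93 ± 0.283 in AI. CDH1, the epithelial cadherin, averaged 4.33 ± 0.421 in IVF, 5.47 ± 0.225 in IVD and 4.31 ± 0.182 in AI. Both thus stepped up in IVD with IVF and AI close together, by 1.46 and 1.16 in IVD against AI. The most opposite genes were DPP3 (-0.864), VIM (-0.862), LOC783349 (-0.854), COL3A1 (-0.849) and ACTR1A (-0.847). VIM, an intermediate filament protein of mesenchymal cells, averaged -4.47 ± 0.215 in IVF, -5.64 ± 0.160 in IVD and -4.57 ± 0.174 in AI.

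With the group means removed, the genes closest to PSPH were different ones. VPS26B (r = 0.710), RBM5 (0.625), HSPA9 (0.622), KIFBP (0.612), ECHDC2 (0.607), TERF1 (0.607), CCT8 (0.600), FBXO3 (0.591), KPNA2 (0.589) and C7H5orf15 (0.574) led, and the 99th percentile was 0.516. VPS26B, a retromer subunit, did not step up in IVD: it averaged 1.19 ± 0.391 in IVF, 0.96 ± 0.221 in IVD and 1.29 ± 0.274 in AI. These values describe how embryos of 1 group varied together and carry no test.

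In the bovine RefSeq gene order, the 5 nearest measured named genes on each side of PSPH were split. They reach to the 22nd protein-coding gene before PSPH (BCKDK) and the 11th after it (CRCP). In IVD against AI 2 of the 10 rose and 5 fell, with differences between -0.89 and 0.47 and a median of -0.28. Among all features 25.5% were higher and 21% lower. CRCP rose by 0.47 ± 0.185 and GUSB, a lysosomal enzyme, by 0.33 ± 0.124, and CRCP was also lower in IVF than in IVD, by -1.04 ± 0.174 (limma adjusted p = 0.0342 and 0.0272 for the rises). NIPSNAP2, the nearest measured gene before PSPH, averaged -0.42 ± 0.556 in IVF, -0.69 ± 0.270 in IVD and -0.28 ± 0.306 in AI. CHCHD2, the nearest measured one after it, averaged -0.15 ± 0.332 in IVF, -0.31 ± 0.289 in IVD and -0.07 ± 0.360 in AI. In IVF against AI 1 of the 10 rose and 2 fell, beside 19.9% higher and 17.7% lower among all features. The gene order is that of assembly ARS-UCD2.0, and the clones were not mapped.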

How the data were processed

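The authors deposited log2 ratios of 86 2-colour cDNA arrays, 2 per embryo, in 1 table. How images were read, background removed and ratios normalized is, in the sources used here, not given. Of its cells, 20.1% held no value. Array medians ran from -2.22 to 1.06, so the median of the 5558 rows with a value on all arrays was subtracted from each array. The sign was turned where the embryo carried Cy3, and an embryo's arrays were averaged, which makes each embryo 1 replicate. Whether embryos share dams, sires or collection is not stated, so p-values measure the spread between these embryos.

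A row was kept with at least 7 embryos per group measured on both arrays (10757 rows). Rows of 1 symbol, updated by gene identifier, were averaged. Comparisons used limma 3.58.1 under R 4.3.3 (group means over all 43 embryos, empirical Bayes, two-sided, Benjamini-Hochberg over 6278 features, threshold 0.05), after a test on simulated data. Differences are log2 with their standard errors. Correlations with technical measures were tested by permutation (scipy 1.17.1). Label subsets, noticed in the values, were described without a test. The gene, the lists and the label subsets were chosen with earlier results of these data known. Named genes are up to 6 per pathway list by size of difference (all of the folate list) and the 10 closest and 5 most opposite by correlation. The number of arrays limits the precision. Alternatives covered the scaling, the dye, the filter, the embryos left out, the embryo number or dye-bias cluster as a block, and array weights.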

Additional observations from a re-analysis of the deposited data

How the results depend on the processing

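IVD minus AI of PSPH ran from 3.45 (embryo in Cy3 alone) to 4.35 (embryo number as a replicate block) over the alternatives, and from 3.55 to 3.8 with single embryos left out. IVF minus IVD ran from -3.39 (without IVD 12_1 to 12_4) to -2.78 (Cy3 alone), and from -3.15 to -2.94 with single embryos left out. No called result turned in direction under any alternative run. IVF minus AI of PSPH was not past the threshold at 0.59 and passed it in 2 of these fits. It was 0.91 without AI H1, H3 and H5 (chosen after seeing the data) and 1.00 with the embryo number as a replicate block. Embryos whose number occurs in no other group carry no weight in the block fit. Among them are AI H1, H3 and H5 and IVD 12_1 to 12_4, so the 2 fits are not separate. With single embryos left out IVF minus AI ran from 0.49 to 0.73, past the threshold without AI 5 or without IVF 1. It was 0.42 after quantile normalization and 0.39 with the dye-bias cluster as a block. Embryos of the same number in different groups were hardly more alike than others. Their 21 pairs had a median correlation of deviations of 0.00573 (-0.187 to 0.213), against 0.00193 over 595 pairs of different numbers. What the numbers stand for is not given by the labels and is not settled by these correlations.

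Features called in IVD against AI numbered 2921, and 1770 with rows measured in every embryo only, where fewer features are tested. In IVF against IVD they numbered 2986, and 1880 by that filter. In IVF against AI they numbered 2365, and 1325 on the deposited scale, 1571 by that filter and 498 with the dye-bias cluster as a block. Pathway genes called in IVF against AI numbered 24, and 12, 15 and 3 in the same order of settings. The dye-bias clusters lie close to the group labels: 1 held 13 AI and 2 IVF embryos, another 1 AI and 11 IVF, and the last 2 IVF. Cluster and group can thus hardly be told apart in this fit. Its standard error for IVF minus AI of PSPH was 0.511, against 0.290 without the block. The cause of the changes by scale and by block was not tested. On the deposited scale the share of calls that were higher was 85.3% in IVD against AI, against 54.9% after centring, and 17.5% in IVF against IVD, against 47.0%. Of the pathway genes' differences under single alternatives, 1237 kept their side of the threshold, 34 gained a call and 95 lost it. Spot intensities were not used, so signal over background is unknown.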
